A study of Arabidopsis thaliana with 9 samples.

Results

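Transcripts that were lowest when the DELLA protein RGA was active are described here. They are 88 probe sets of the 17273 that passed a filter on low ratios, out of 22746 on the array. Each was chosen from its measured values: its highest value on the 3 arrays with active RGA lay under its lowest value on the other 6 arrays, and its mean log2 ratio with active RGA was at least 1 below that of both other groups. By this rule 90 probe sets qualified, 0.521% of those kept, and those of DFR and JMT were then left out by name. Since the values themselves chose the probe sets, every difference between active RGA and the other groups is given below as a description, without a test.

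RNA from Arabidopsis thaliana inflorescences, trimmed of flowers older than stage 12, was hybridised to 9 Affymetrix arrays, 3 for each of 3 groups, all sampled at 4 h. All plants were ga1-3 rga rgl2, a triple mutant blocked in gibberellin (GA) synthesis and lacking the DELLA proteins RGA and RGL2. The first group, RGA-GR Dex, carried RGA fused to the glucocorticoid receptor (GR) and was treated with dexamethasone (Dex), which activates the fusion. The second, RGA-GR mock, was the same transgenic line under mock treatment, and the third, nontransgenic Dex, was the triple mutant without the transgene under Dex. Every group thus shared the GA deficiency and the loss of endogenous RGA and RGL2, and a nontransgenic mock group was not analysed here. The promoter that drives the fusion and the number of transgenic lines are not given in the sources used here. The design text calls the 3 sets biologically independent.

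GA is a growth hormone that acts largely by removing DELLA proteins: the hormone binds a GID1 receptor, the complex takes hold of a DELLA protein, and the DELLA protein is marked for destruction by an F-box protein. DELLA proteins have no known DNA-binding domain of their own and change transcription through the transcription factors they bind. In flowers RGA and RGL2 hold back the growth of petals and stamens and the maturation of anthers when GA is short. A GR fusion is kept outside the nucleus until the steroid is given.

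The values are linear ratios, and most rows are scaled to their own median across the 9 arrays, so a value compares arrays and not genes. In a row with a median of 1, a log2 ratio of 0 is the middle value of that row. A difference of -1 is a 2-fold lower value and a difference of -2 a 4-fold lower one. Standard errors (SE) come from limma. It pools the spread over the 9 arrays and draws it toward that of probe sets with a similar mean log2 ratio. An SE can thus be larger or smaller than the arrays of that gene alone would give. The SEs of control probe sets come from the group SDs. SDs are over the 3 arrays of a group. The labelled tissue could not be checked, because such ratios do not show whether a gene is expressed. The probe table also names 0 of the 6 floral organ identity genes looked for. Of the 88 probe sets, 59 carry the name of 1 gene, 3 of several and 26 of none. The 59 are all protein coding, and the share with 1 gene was 67.0%, against 55.7% of the probe sets kept. Only 12 of the 59 have a symbol, and the other 47 are known here by locus number.

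The array set has features that are given here once. The row median was under 1 for 43 of the 88 probe sets (48.9%), against 12.8% of the probe sets kept, and the divisor of such rows is not known. The poly-A spike-in controls, which are added to RNA during labelling, had median log2 ratios of -3.70, -3.12 and 0.00 in RGA-GR Dex, -3.45, -3.18 and 0.00 in RGA-GR mock, and 0.85, 0.88 and 1.21 in nontransgenic Dex. The 25S ribosomal RNA control stood at 3.29, 4.71 and 2.93 in RGA-GR Dex, at 0.00, 4.15 and -1.01 in RGA-GR mock, and at -3.58, -4.02 and -4.12 in nontransgenic Dex. It was thus high on all RGA-GR Dex arrays, uneven in RGA-GR mock and low in nontransgenic Dex, the reverse of the order of the 88 probe sets, and its part in their values was not tested. The difference between the 3' and 5' GAPDH control probe sets, a sign of RNA quality, was 0.81 ± 0.32 greater in RGA-GR Dex and 0.84 greater in RGA-GR mock than in nontransgenic Dex, and differed by -0.03 between RGA-GR Dex and RGA-GR mock. For the actin control probe sets the same difference had the other sign against nontransgenic Dex. It was -0.15 ± 0.23 for RGA-GR Dex and -0.39 for RGA-GR mock, and 0.24 between RGA-GR Dex and RGA-GR mock. The part of RNA quality was not tested either.

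Over the 88 probe sets, the median log2 ratio was -1.25, -2.29 and -1.81 on the RGA-GR Dex arrays, -0.10, -0.03 and -0.03 on the RGA-GR mock arrays, and 0.41, 0.33 and 0.32 on the nontransgenic Dex arrays. The first group is low by the rule, while the steps within it are not set by the rule: replicate 1 was the least low and replicate 2 the lowest. The median difference was -1.85 between RGA-GR Dex and RGA-GR mock (from -5.05 to -1.0) and -2.38 between RGA-GR Dex and nontransgenic Dex (from -5.40 to -1.02). Over all probe sets kept these medians were 0.08 and 0.14. Both differences were at least 1.5 in size for 54 of the 88, at least 2 for 31 and at least 3, an 8-fold lower value, for 4. In bulk tissue, fewer cells of a type and less transcript per cell cannot be told apart.

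**Figure D1:**
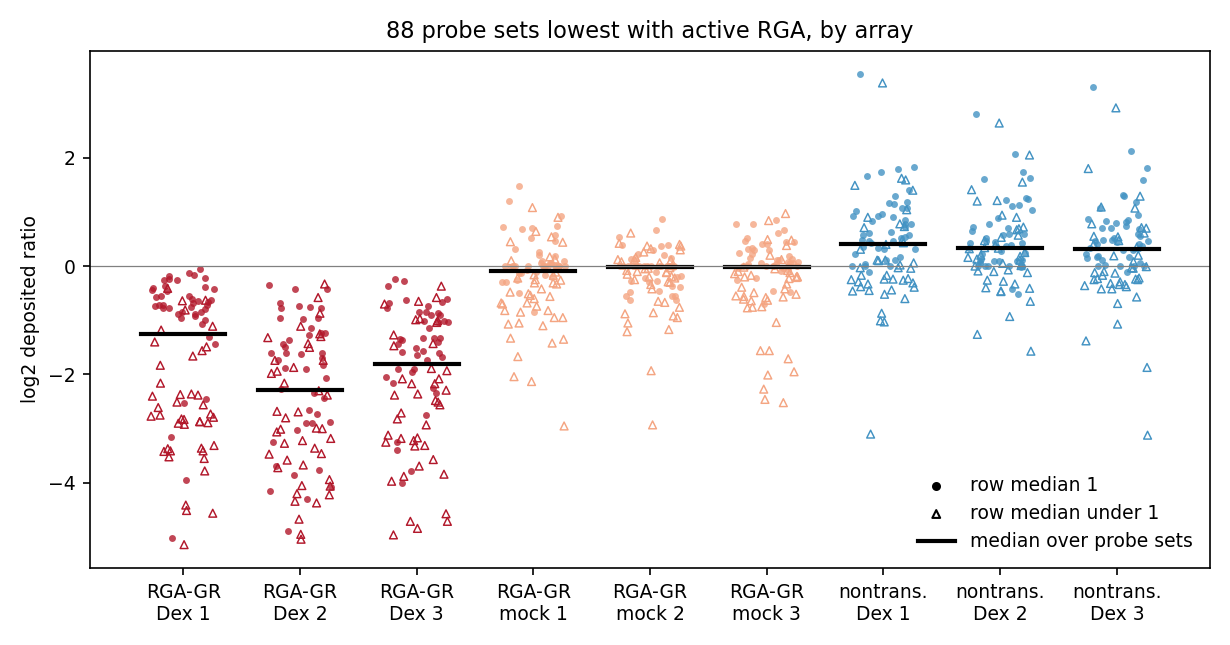
The log2 deposited ratio of each of the 88 probe sets (vertical axis) on each of the 9 arrays (horizontal axis). Filled circles are probe sets with a row median of 1, open triangles those with a row median under 1, and black bars the median over probe sets, which runs from -2.29 to -1.25 in RGA-GR Dex, from -0.10 to -0.03 in RGA-GR mock and from 0.32 to 0.41 in nontransgenic Dex.

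Over the 88, the RGA-GR Dex arrays differed among themselves more than those of the other groups. The rule chose the 88 on these values, so this spread is not independent of the choice. The median within-group SD of the 88 was 0.92 in RGA-GR Dex, 0.47 in RGA-GR mock and 0.35 in nontransgenic Dex, against 0.33, 0.32 and 0.22 over the probe sets kept. Replicate 2 was the lowest RGA-GR Dex array for 41 probe sets, replicate 3 for 28 and replicate 1 for 19. The range over the 3 RGA-GR Dex arrays had a median of 1.71, was under 1 for 16 probe sets and over 2 for 39.

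Between transgenic arrays of the same number, the median over the 88 of RGA-GR Dex minus RGA-GR mock was -1.34 for number 1, -2.0 for number 2 and -1.60 for number 3. A difference of at least 1 was seen in 48, 71 and 65 of the 88 for numbers 1, 2 and 3, and in all 3 numbers for 25, of which 16 have the name of 1 gene. It was at least 2 in all 3 numbers for 4 genes: AT5G28090, AT2G18720, AT3G18260 and AT3G01960. The gap between the highest RGA-GR Dex array and the lowest of the other 6 had a median of 0.26, was at least 1 for 9 probe sets and was under 0.1 for 16.

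No probe set passed the adjusted threshold of 0.05 between RGA-GR Dex and RGA-GR mock in limma with Benjamini-Hochberg over all 17273 (0 called, 0%, smallest adjusted p 0.143). That fit takes no account of the pairing of transgenic arrays by number. With a replicate block over all 9 arrays the count was also 0 (smallest adjusted p 0.192, 1911 at an unadjusted p below 0.05). With a replicate block among the transgenic arrays alone, added after the data were seen, it was 0 too (smallest adjusted p 0.0525, 2883 at an unadjusted p below 0.05). With unadjusted p values 1525 probe sets were under 0.05, and the adjusted count was 1 in eBayes without trend and 15 once RGA-GR Dex replicate 1 was left out. The rule turned round, with RGA-GR Dex highest, took 48 probe sets. The same rule with RGA-GR mock as the lowest group took 44, and with nontransgenic Dex as the lowest group 924.

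AT5G28090 ranked first among the named genes by the smaller of the differences to the other 2 groups. Its log2 ratios were -5.14, -4.95 and -4.84 in RGA-GR Dex, against -0.60, 0.32 and 0.49 in RGA-GR mock and -1.03, -0.46 and -0.69 in nontransgenic Dex. The RGA-GR Dex arrays lay within 0.31 of each other and 3.81 below every other array, the widest gap among the 88. The difference was -5.05 ± 0.95 (SE, n = 3 each) to RGA-GR mock, a 33.1-fold lower value, and -4.25 to nontransgenic Dex, a 19.0-fold lower one. Its SDs were 0.16 in RGA-GR Dex, 0.59 in RGA-GR mock and 0.28 in nontransgenic Dex. The limma SE is thus larger than its own arrays would give. Its lowest deposited ratio, 0.0283, is the lowest among the 88, and the table ends at 0.01, so the fold is less sure than the separation.

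AT2G18720 had log2 ratios of -4.56, -3.94 and -2.29 in RGA-GR Dex, -0.95, 0.40 and -0.21 in RGA-GR mock and -0.31, -0.41 and -0.01 in nontransgenic Dex. Its other 2 groups had nearly the same mean, and the difference was -3.34 ± 0.91 to RGA-GR mock and -3.35 to nontransgenic Dex. AT3G18260 had log2 ratios of -2.75, -3.06 and -4.96 in RGA-GR Dex, -0.48, -0.08 and -0.61 in RGA-GR mock and -0.03, 0.13 and 0.40 in nontransgenic Dex. Here the gap to the nearest other array was 2.14, and the differences were -3.20 ± 0.85 and -3.75 to RGA-GR mock and nontransgenic Dex.

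AT3G01960 had log2 ratios of -3.41, -3.58 and -3.88 in RGA-GR Dex, -0.85, -0.10 and -0.49 in RGA-GR mock and -3.10, -0.26 and -0.10 in nontransgenic Dex. Nontransgenic replicate 1 was nearly as low as the RGA-GR Dex arrays, only 0.32 above the highest of them, so the gene was not low with active RGA alone on every array. AT1G30795 showed the other kind of spread, with -1.11, -4.22 and -4.57 in RGA-GR Dex, 0.44, -0.76 and -0.52 in RGA-GR mock and 1.40, 2.05 and 0.70 in nontransgenic Dex. Its 3 groups stepped up in that order, with differences of -3.02 ± 0.89 to RGA-GR mock and -4.69 to nontransgenic Dex, and RGA-GR Dex replicate 1 was close to the RGA-GR mock arrays. AT5G26060 had -0.64, -4.67 and -0.99 in RGA-GR Dex, 1.08, -0.20 and -0.58 in RGA-GR mock and 3.38, 2.64 and 2.92 in nontransgenic Dex. Its difference to nontransgenic Dex was -5.08 in RGA-GR Dex and -2.88 in RGA-GR mock, and only RGA-GR Dex replicate 2 was far below the RGA-GR mock arrays.

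**Figure D2:**
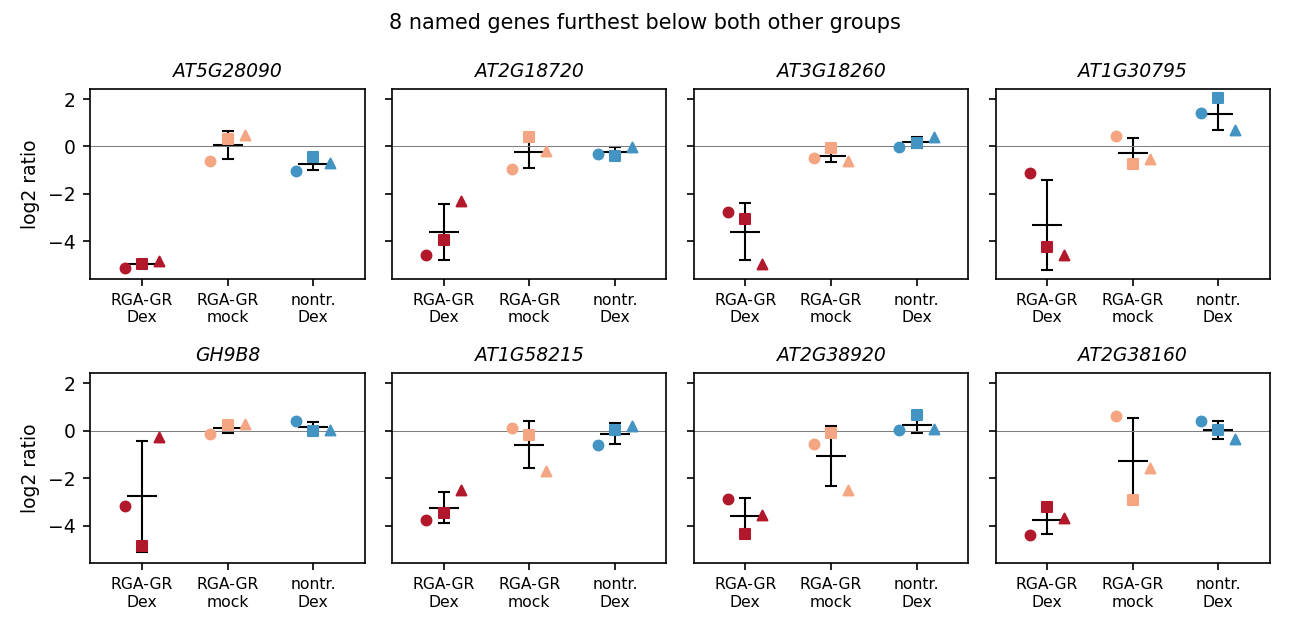
Log2 ratios (vertical axes) of the 8 named genes with the largest smaller difference, in RGA-GR Dex, RGA-GR mock and nontransgenic Dex. Circles, squares and triangles are replicates 1, 2 and 3, and black bars the mean ± SD. AT5G28090 is tight and far below in RGA-GR Dex, while GH9B8 has 2 low arrays and 1 at -0.28.

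Of the 20 named genes furthest below both groups, 15 have a row median under 1, and RGA-GR Dex replicate 2 was the lowest array for 9. Beside those above they are GH9B8, AT1G58215, AT2G38920, AT2G38160, AT5G61340, AT3G48490, DELTA-VPE, AT1G26970, AT3G28610, AT3G48940, AT2G38090, AT1G31050, AT3G12000 and AT5G63100. AT3G48490 is one of the few with a row median of 1. It had log2 ratios of -1.06, -3.77 and -2.35 in RGA-GR Dex, -0.20, 0.00 and 0.45 in RGA-GR mock and 1.08, 1.12 and 1.19 in nontransgenic Dex. Its groups were each set apart from the next, with -2.48 ± 0.58 to RGA-GR mock. AT3G28610 had -2.87, -2.99 and -1.43 in RGA-GR Dex, 0.17, -0.12 and -0.57 in RGA-GR mock and 0.78, 0.90 and -0.04 in nontransgenic Dex, a difference of -2.25 ± 0.58 to RGA-GR mock with a gap of 0.86. AT5G61340 had 1 array far below the rest, with -5.01, -1.37 and -0.63 in RGA-GR Dex, 0.68, 0.00 and -0.22 in RGA-GR mock and 0.83, 0.77 and 0.83 in nontransgenic Dex. The remaining 39 named genes had differences from -2.81 to -1.0 to RGA-GR mock and from -3.62 to -1.02 to nontransgenic Dex.

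The 12 genes with a symbol had a median difference of -1.85 to RGA-GR mock and -2.50 to nontransgenic Dex, close to those of all 88, and 4 of them have a row median under 1. They fall into proteins of the cell wall, proteases and protein turnover, redox and phosphate enzymes, nuclear proteins, and membrane or calmodulin-related proteins. Words in the symbols and synonyms placed 2 genes under cell wall (3.39% of the 59, against 0.426% of all kept probe sets with 1 gene), 2 under proteolysis (3.39% against 0.644%) and 1 under oxidation (1.69% against 0.758%). They placed 0 under lipid, kinase and signalling, transport or transcription, and 54 (91.5%) under none, against 97.6% of all. Such words miss DELTA-VPE, PUB19 and bZIP42, and no product descriptions were at hand, so these counts describe names rather than functions.

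Among the cell wall genes, GH9B8 encodes a glycosyl hydrolase of the family that holds plant endoglucanases, which cut glucan chains of the wall. It had log2 ratios of -3.16, -4.88 and -0.28 in RGA-GR Dex, -0.13, 0.22 and 0.30 in RGA-GR mock and 0.42, 0.00 and 0.02 in nontransgenic Dex. RGA-GR mock and nontransgenic Dex were level with each other, and 2 of the 3 RGA-GR Dex arrays were far lower, with -2.90 ± 0.98 to RGA-GR mock and -2.92 to nontransgenic Dex. EXPB5 encodes a beta-expansin, a protein that loosens the wall so that cells can enlarge. It had -0.40, -4.15 and -0.77 in RGA-GR Dex, 0.73, 0.00 and -0.25 in RGA-GR mock and 0.93, 0.42 and 0.15 in nontransgenic Dex. Only replicate 2 carried the size of its difference (-1.93 ± 0.82 to RGA-GR mock), and the other 2 RGA-GR Dex arrays were within 1 of the lowest RGA-GR mock array.

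DELTA-VPE encodes a vacuolar processing enzyme, a cysteine protease known for the programmed death of cell layers in the young seed coat. It had log2 ratios of -2.37, -4.20 and -3.22 in RGA-GR Dex, -0.54, 0.37 and -2.27 in RGA-GR mock and -1.01, 1.21 and 0.19 in nontransgenic Dex. RGA-GR mock replicate 3 was only 0.10 above the highest RGA-GR Dex array, beside a mean difference of -2.45 ± 1.02. SCPL32 and scpl20 encode serine carboxypeptidase-like proteins, a family that includes peptidases and acyltransferases. SCPL32 had -0.56, -2.90 and -1.57 in RGA-GR Dex, 0.26, 0.66 and -0.46 in RGA-GR mock and 0.00, 0.38 and 0.29 in nontransgenic Dex. The smaller but more even difference was that of scpl20, with -0.99, -0.77 and -1.40 in RGA-GR Dex, 0.00, 0.15 and -0.08 in RGA-GR mock and 0.86, 0.12 and 0.94 in nontransgenic Dex. Its difference was -1.08 ± 0.27 to RGA-GR mock, against -1.83 ± 0.56 for SCPL32. PUB19 encodes a U-box ubiquitin ligase that dampens responses to abscisic acid and drought. It had -2.82, -2.69 and -3.32 in RGA-GR Dex, -2.13, -0.04 and -2.46 in RGA-GR mock and -0.87, 0.33 and -0.13 in nontransgenic Dex, so 2 of its 3 RGA-GR mock arrays were nearly as low as those with active RGA.

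MSRB5 encodes a methionine sulfoxide reductase, which repairs oxidised methionine in proteins. It had log2 ratios of -2.92, -5.04 and -2.36 in RGA-GR Dex, -0.31, -1.93 and -2.01 in RGA-GR mock and -0.52, 0.53 and 0.54 in nontransgenic Dex. As for PUB19, RGA-GR mock was spread between the other groups. PAP20 encodes a purple acid phosphatase, of a family that frees phosphate from organic esters. It had -2.45, -1.83 and -1.32 in RGA-GR Dex, 0.00, -0.02 and 0.05 in RGA-GR mock and 1.07, 1.73 and 0.56 in nontransgenic Dex. This was the best separated gene with a symbol: its row median is 1, its gap was 1.30, and its difference was -1.88 ± 0.37 to RGA-GR mock and -2.99 to nontransgenic Dex.

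bZIP42 encodes a basic leucine zipper transcription factor. It had log2 ratios of -0.76, -4.30 and -1.02 in RGA-GR Dex, 0.06, -0.27 and 0.00 in RGA-GR mock and 0.63, 0.70 and 1.30 in nontransgenic Dex, so replicate 2 again stood far below the other RGA-GR Dex arrays. TERT encodes the catalytic subunit of telomerase, which extends chromosome ends. It had -1.66, -1.50 and -2.93 in RGA-GR Dex, -1.10, 0.06 and -1.04 in RGA-GR mock and -0.24, -0.93 and -0.38 in nontransgenic Dex, a difference of -1.33 ± 0.74 to RGA-GR mock. TET3 encodes a tetraspanin, a membrane protein. It had -0.79, -1.70 and -1.61 in RGA-GR Dex, 0.18, -0.55 and 0.19 in RGA-GR mock and 0.73, 0.00 and 0.41 in nontransgenic Dex. IQD19 encodes a protein with an IQ domain, a motif that binds calmodulin. Its values were -0.84, -0.95 and -1.33 in RGA-GR Dex, 0.05, 0.39 and 0.66 in RGA-GR mock and 0.51, -0.52 and 0.00 in nontransgenic Dex. Of the 12 genes IQD19 had the RGA-GR Dex arrays closest together, and its difference was -1.41 ± 0.32 to RGA-GR mock and -1.04 to nontransgenic Dex, near the limit of the rule.

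**Figure D3:**
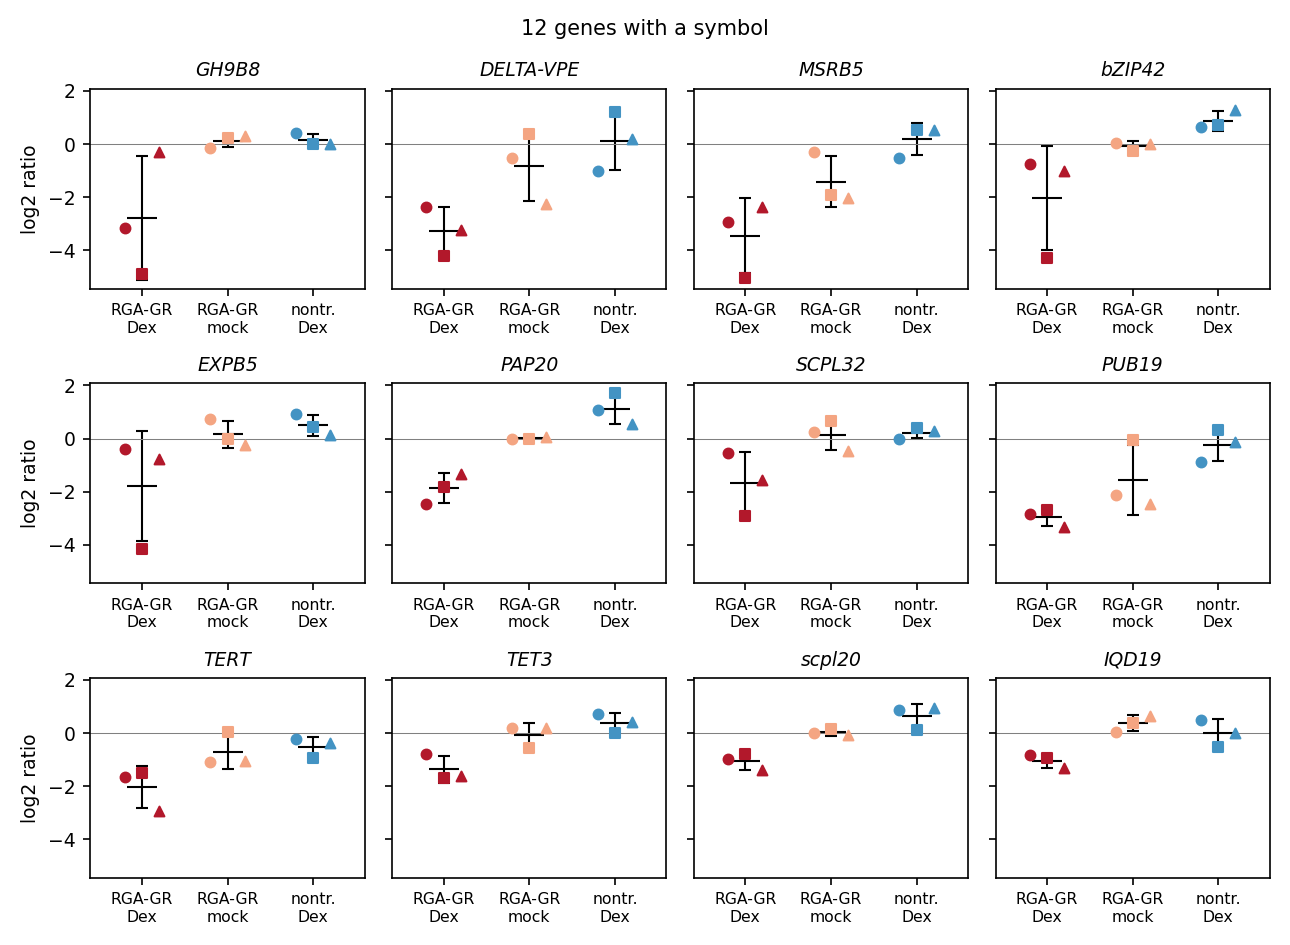
Log2 ratios (vertical axes) of the 12 genes with a symbol in RGA-GR Dex, RGA-GR mock and nontransgenic Dex. Circles, squares and triangles are replicates 1, 2 and 3, and black bars the mean ± SD. Replicate 2 (squares) is far below the other RGA-GR Dex arrays for EXPB5 and bZIP42, while PUB19, scpl20 and IQD19 have the RGA-GR Dex arrays closest together.

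At the limit of the rule, the last named genes inside were AT2G34340 (-1.23 to RGA-GR mock and -1.02 to nontransgenic Dex), AT1G05440 (-1.01 and -1.47) and AT3G03550 (-1.0 and -1.16). Just outside were AOP3 (-1.0 and -1.67, its first value a little above the limit), AT4G23610 (-0.99 and -1.15) and AT1G53070 (-0.99 and -2.47). There is no break in size at the limit. A further 253 probe sets had all RGA-GR Dex arrays below the other 6 with a difference under 1 in size to at least 1 group, and 497 met the rule on means without the rule on arrays.

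**Figure D4:**
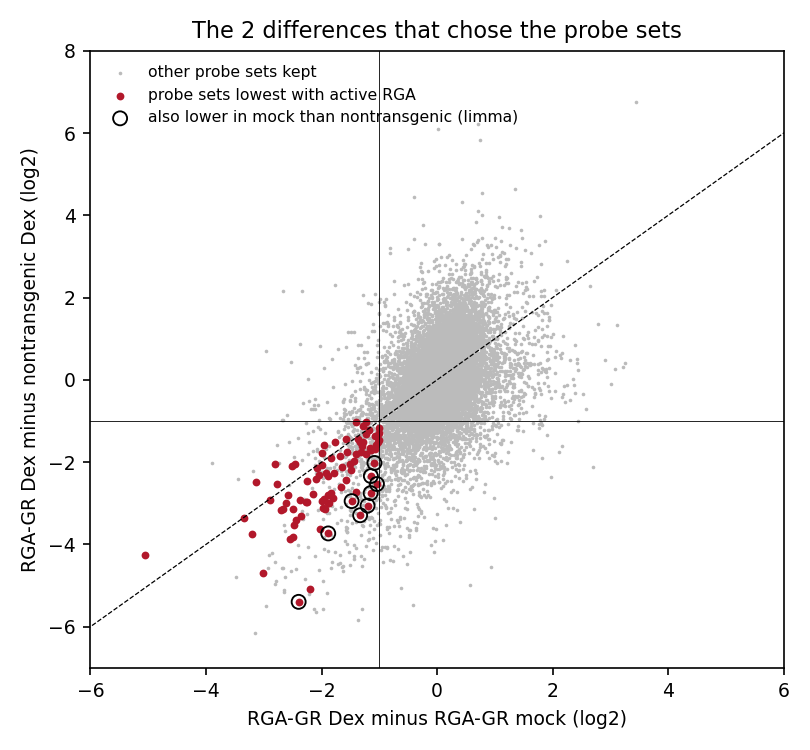
RGA-GR Dex minus RGA-GR mock (horizontal axis) against RGA-GR Dex minus nontransgenic Dex (vertical axis), both log2, for every probe set kept (grey) and the 88 (red), with lines at -1 and a dashed line of equality. Black rings mark the 9 that were also lower in RGA-GR mock than in nontransgenic Dex. Grey points below both lines are DFR and JMT, left out by name, and probe sets that were not lowest on all 3 RGA-GR Dex arrays, and AT5G28090 is the red point furthest to the left, at -5.05. Both axes share the RGA-GR Dex arrays.

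A row median under 1 went with larger differences. The 43 such probe sets had a median difference of -2.04 to RGA-GR mock and -2.80 to nontransgenic Dex, against -1.40 and -1.96 for the 45 with a row median of 1. The part of the unknown divisor in this was not tested. AT1G31050 is the only one of the 59 genes with another probe set on the array. The chosen one had log2 ratios of -2.79, -4.06 and -1.93 in RGA-GR Dex, -1.35, 0.30 and -0.19 in RGA-GR mock and 0.06, -0.65 and -1.87 in nontransgenic Dex. The other, which did not pass the filter on low ratios, had -1.87, -1.52 and -2.08 in RGA-GR Dex, -1.74, -0.49 and -1.81 in RGA-GR mock and -3.28, -2.56 and -4.15 in nontransgenic Dex. It differed by -0.48 from RGA-GR mock and by 1.51 from nontransgenic Dex, so the 2 probe sets disagree in direction against nontransgenic Dex.

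By the gene order of the assembly TAIR10.1, the 59 genes were spread over the genome, with 15, 12, 14, 6 and 12 on chromosomes 1 to 5. No 2 of them were next to each other among coding genes. The closest were AT2G38090 and AT2G38160, with 7 coding genes between them, then AT2G38160 and AT2G38250, with 8, and AT1G12030 and AT1G12150, with 12. AT2G38250 had log2 ratios of -0.63, -3.0 and -2.08 in RGA-GR Dex, -0.11, 0.01 and -0.23 in RGA-GR mock and 1.59, 1.55 and -0.22 in nontransgenic Dex. AT2G38090 had -1.43, -4.07 and -1.04 in RGA-GR Dex, 0.00, -0.18 and 0.07 in RGA-GR mock and 0.31, 1.04 and 0.46 in nontransgenic Dex. Both were lowest on RGA-GR Dex replicate 2. AT2G38160, which lies between them, was not: it had -4.41, -3.22 and -3.69 in RGA-GR Dex, with replicate 2 the highest of these.

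The comparison of RGA-GR mock with nontransgenic Dex was not used to set the size of any difference in the rule, and it was tested with limma. It asks whether a gene low with active RGA was already different in the uninduced transgenic line, and its groups differ in the transgene and in Dex at once. Of the 88 probe sets, 9 fell in RGA-GR mock (10.2%) and 0 rose, and at an unadjusted p under 0.05 there were 12 lower and 0 higher. Over all probe sets kept, 2635 passed (15.3%), 1069 lower (6.19%) and 1566 higher (9.07%). In this fit the share called lower among the 88 was thus above, and that called in either direction below, the share over all. The fit pools the RGA-GR Dex arrays into the SE, which had a median of 0.63 over the 88 and 0.26 over all. With only the 6 arrays compared, 13 of the 88 and 2140 of the 17273 passed. The share called in either direction was then larger for the 88. The rule holds both groups above the RGA-GR Dex arrays, and transgenic arrays sharing a number resemble each other across treatments, so the shares are not independent of the choice and nothing particular to these genes is read from them.

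The 3 named genes that fell were AT5G39220, AT5G46940 and AT5G01870. AT5G39220 had log2 ratios of -1.31, -2.06 and -0.66 in RGA-GR Dex, 0.00, -0.63 and 0.06 in RGA-GR mock and 1.40, 1.26 and 1.58 in nontransgenic Dex. RGA-GR mock differed from nontransgenic Dex by -1.60 ± 0.33 (limma, adjusted p = 0.0198), while the highest RGA-GR Dex array was only 0.02 below the lowest RGA-GR mock array. AT5G46940 had -1.49, -1.74 and -2.56 in RGA-GR Dex, -0.33, -0.92 and -0.12 in RGA-GR mock and 1.04, 0.72 and 1.29 in nontransgenic Dex. RGA-GR Dex minus RGA-GR mock was -1.48 and RGA-GR mock minus nontransgenic Dex -1.47 ± 0.42 (limma, adjusted p = 0.0417 for the second). AT5G01870 had -0.12, -1.89 and -1.32 in RGA-GR Dex, 0.21, -0.10 and 0.00 in RGA-GR mock and 1.16, 1.22 and 1.31 in nontransgenic Dex. Its RGA-GR mock arrays were -1.19 ± 0.36 from nontransgenic Dex (limma, adjusted p = 0.0486). In each of the 3, no RGA-GR mock array reached the nontransgenic ones.

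The other 6 that fell have no gene name, with differences from -3.0 to -0.94 and limma adjusted p values from 0.0153 to 0.0396. The deepest of them had log2 ratios of -0.71, -3.68 and -2.15 in RGA-GR Dex, 1.20, -0.55 and 0.00 in RGA-GR mock and 3.54, 2.81 and 3.31 in nontransgenic Dex. It also had the largest difference between RGA-GR Dex and nontransgenic Dex among the 88, -5.40. Of the 9 that fell, 7 have a row median of 1 and 2 a row median under 1. The count rests on the arrays used: without RGA-GR mock replicate 2, limma called 0 of the 88 and 0 of all probe sets, with 11 of the 88 and 4341 of all at an unadjusted p under 0.05 and a smallest adjusted p of 0.058. It was 4 without RGA-GR mock replicate 1, 3, 4 and 4 without nontransgenic replicates 1, 2 and 3, and 3 with the spike-in signal as a term. In the 5 arrays with spike-in signal, which hold 1 RGA-GR mock array that is assumed to vary like the others, it was 7, of which 5 are among the 9, and AT5G46940 was not. With only the 6 arrays compared it was 13, of which 7 are among the 9, beside 2140 of all probe sets kept.

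Past the calls, the RGA-GR mock mean was under the nontransgenic Dex mean for 75 of the 88 (85.2%), against 45.6% of all probe sets kept. The median difference was -0.48 (from -3.0 to 0.80), against 0.07 over all. All RGA-GR mock arrays lay below all nontransgenic Dex arrays for 32 of the 88 (36.4%), against 16.6% of the probe sets kept, and all lay above for 0, against 23.3%. The rule bears on these shares as on the calls. AT5G26060 (-2.88, limma adjusted p = 0.0518), AT1G30795 (-1.67, adjusted p = 0.217) and MSRB5 (-1.60, adjusted p = 0.318) were among the 4 lowest named genes and did not pass in limma. AT5G28090 (0.80), AT1G76910 (0.77), AT3G01960 (0.67) and AT1G31050 (0.41) were the 4 highest, and none passed (limma adjusted p from 0.59 to 0.798). Of these values 3 moved most when 1 array was left out: AT1G76910 was at 0.05 without nontransgenic replicate 3, 0.12 without RGA-GR mock replicate 2 and 1.78 without RGA-GR mock replicate 1, while AT3G01960 was at -0.30 without nontransgenic replicate 1 and AT1G31050 at -0.11 without nontransgenic replicate 3.

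**Figure D5:**
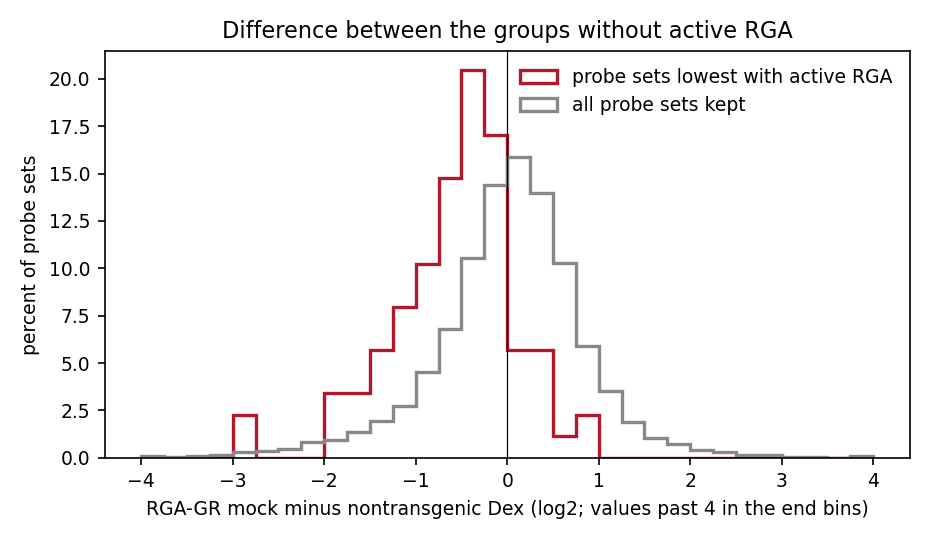
Distribution of RGA-GR mock minus nontransgenic Dex (horizontal axis, log2) as percent of probe sets (vertical axis) for the 88 (red) and all 17273 kept (grey). The 88 are shifted to the left, with a median of -0.48 against 0.07, and their highest value is 0.80.

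Of the 8 gene lists looked up, none had a member among the 88. The rule took only 0.521% of all probe sets kept, and few listed genes were measured, so nothing about the lists is read from this. Of 10 GA signalling genes 7 were measured, with median differences of 0.37 between RGA-GR Dex and RGA-GR mock, 0.82 between RGA-GR Dex and nontransgenic Dex and 0.20 between RGA-GR mock and nontransgenic Dex. GID1A, a GA receptor gene, rose in RGA-GR mock (1.30, limma adjusted p = 0.0297) and the other 6 did not pass. None of 7 GA biosynthesis genes is named by the probe table. Both measured anther cell fate genes, SPL and EMS1, both measured genes of photosynthetic tissue and both of flavonoid synthesis were outside the 88, DFR by the exclusion. Between RGA-GR mock and nontransgenic Dex, EMS1 and both flavonoid genes (DFR and UF3GT) fell, both photosynthetic genes (RCA and LHCB4.1) rose, and SPL did not pass.

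Of 27 listed pollen genes, 13 are named by the probe table and 11 were measured, none of them among the 88, from which AT59, AT5G45880 and AT1G29140 were barred by name. Their median log2 ratio was 0.00, -3.15 and -1.28 in RGA-GR Dex, 0.09, -0.72 and -0.18 in RGA-GR mock and 0.77, 0.59 and 0.71 in nontransgenic Dex. Replicate 1 was the least low and replicate 2 the lowest in RGA-GR Dex, as over the 88. The pollen median on replicate 1 was above those of RGA-GR mock replicates 2 and 3. For the 88 the rule itself puts replicate 1 (-1.25) below RGA-GR mock, so no likeness to or contrast with the pollen genes is read from this. Of the 11 genes, 9 had their lowest mean in RGA-GR Dex and their highest in nontransgenic Dex, and TUA1 and AGL65 ran the other way between RGA-GR Dex and both other groups. Between RGA-GR mock and nontransgenic Dex 3 pollen genes fell (AT5G45880, AT1G29140 and MGH3) and 1 rose (TUA1), with a median of -1.13. Of 27 tapetum and pollen wall genes 5 were measured, with median differences of -0.31 between RGA-GR Dex and RGA-GR mock, -1.15 between RGA-GR Dex and nontransgenic Dex and -0.22 between RGA-GR mock and nontransgenic Dex. Of these 5 genes, 1 fell in RGA-GR mock, the spermidine acyltransferase gene SHT. Values here are ratios, so no marker can be called absent, and the part of pollen or anther content in the values of the 88 was not tested.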

How the data were processed

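Per the labels, total RNA was biotin-labelled for Affymetrix arrays. The submitters' processing notes name GCOS and no version of it. The authors deposited 1 table of linear ratios for 9 arrays. From the values, most rows are divided by their own median, and what the rest were divided by is not known.

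Log2 of the ratio was taken with no offset. The 64 control probe sets were left out, and the filter kept probe sets that exceeded the 40th percentile of an array on 3 or more of the 9. The filter acts on ratios, which do not show how strongly a gene is expressed. RGA-GR mock was compared with nontransgenic Dex using limma 3.58.1 in R 4.3.3 (eBayes with trend, two-sided, adjusted by Benjamini-Hochberg across the 17273 kept, threshold 0.05), with all 9 arrays in the fit and 6 residual degrees of freedom. The fit was tested on simulated data with independent arrays and, for each probe set, the same spread in every group. That test did not cover the pairing of transgenic arrays or a spread that differs between groups. Tables and figures were made with Python 3.11.15, pandas 2.3.3 and matplotlib 3.10.9. The number of arrays limits the precision.

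The probe sets, the 8 gene lists (92 loci) and the alternatives were chosen with earlier results of these data known. Named genes were, among those with 1 gene, the 20 furthest below both groups, the 4 lowest and 4 highest for RGA-GR mock minus nontransgenic Dex, those called there, 3 on each side of the limit, members of 1 family or close neighbours, and other probe sets of the same gene. The genes with a symbol, AT2G38250, AT2G38090 and 1 unnamed probe set were described for their annotation, their place or their size after their values were seen. Names came from the platform's probe table and the gene table of TAIR10.1. A planned search of promoters was not run, since no sequences were at hand, and product groups rest on symbols and synonyms.

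Deviations from group means correlated across probe sets between RGA-GR Dex and RGA-GR mock arrays of the same number (r = 0.332, 0.118 and 0.325), so these were taken as pairs, from the data. RGA-GR mock and nontransgenic Dex arrays of the same number did not pair (r = 0.006, 0.036 and -0.039).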

Additional observations from a re-analysis of the deposited data

Results flagged for a closer look

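The 25S ribosomal RNA control probe set, which enters none of the comparisons above, differed by 7.55 ± 0.57 (log2, SE from the group SDs, n = 3 each) between RGA-GR Dex and nontransgenic Dex, the first being higher, and by 4.95 between RGA-GR mock and nontransgenic Dex. It was picked out as a signal in data outside the main measurement, above its level in the control arrays. Its relation to the 88 probe sets was not tested.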

How the results depend on the processing

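The rule took 88 probe sets as written, 152 with no filter, 212 and 54 with a minimum difference of 0.5 and 1.5, 497 on means alone and, chosen after seeing the data, 45 among rows with a median of 1 and 443, 218 and 230 without both transgenic arrays of number 1, 2 and 3. Leaving out 1 array gave 94 to 449, the highest without RGA-GR Dex replicate 1. Between RGA-GR mock and nontransgenic Dex, the 2635 calls became 1123 after quantile normalization, 1412 with the spike-in signal as a term and 1029 among the 5 arrays whose spike-ins gave a signal. They were 0 without both transgenic arrays of number 2 (limma, 4347 at an unadjusted p under 0.05) and 0 to 2773 without 1 array, with 0 without RGA-GR mock replicate 2. For the 88, the 9 calls became 3 after quantile normalization, 3 with the spike-in term, 0 without both transgenic arrays of number 2 (15 at an unadjusted p under 0.05) and 0 to 11 without 1 array. With a replicate block over all 9 arrays the calls were 3181 over all and 10 for the 88, and a replicate block that paired only the transgenic arrays, added after seeing the data, gave 4927 and 11. The split of calls, 1566 higher and 1069 lower as deposited, was 839 higher and 1412 lower with array medians subtracted, 192 and 837 among the 5 arrays with spike-ins, and 1040 and 1100 with only the 6 arrays compared. The median over the 88 stayed between -0.62 and -0.44 in all 25 alternatives. AT3G01960 turned to -0.30 without nontransgenic replicate 1 (-0.30 to 1.20 without 1 array) and AT1G31050 to -0.11 without nontransgenic replicate 3 (-0.11 to 0.88). AT1G76910 ran over 0.05 to 1.78 without 1 array. AT5G39220 lost its call in 5 of 25 alternatives, AT5G46940 in 10 of 24 and AT5G01870 in 13 of 25, while AT5G26060 gained one in 6 of 24. The causes were not tested.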
